A study of Mus musculus with 6 samples.

Results

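The 40 genes described here carry out glucose uptake, glycolysis, lactate production and export, and the entry of pyruvate into mitochondria. They were listed by name for their role, with no threshold on their values but with earlier results of these data known, out of 54356 genes in the files, and all 40 passed the filter on low counts that left 16048 genes for testing. They were measured in hearts of mouse embryos at embryonic day 9.5 by RNA sequencing, in 3 libraries of Flnc global knockout embryos (FlncgKO) and 3 libraries of littermate controls, on a C57BL/6 background. Flnc encodes filamin C, an actin-crosslinking protein of striated muscle. The study made its global knockouts (Flnc-/-) from a cross of floxed Flnc mice (Flnc fl/fl) to Sox2Cre mice. Sox2Cre acts in the cells that form the embryo, so that the deletion was not limited to cardiomyocytes. The labels call the control animals littermates and give no Flnc or Cre alleles for them. The number of hearts in a library and the sex of the embryos are not given in the sources used here, so p-values measure the spread between these libraries, which may be partly technical. The tissue is labelled whole heart, while the methods speak of hearts or isolated ventricles.

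Glycolysis splits glucose into pyruvate. Glucose enters through GLUT transporters, is trapped by hexokinase, is committed at phosphofructokinase, and leaves the pathway as pyruvate at pyruvate kinase. Pyruvate is then either reduced to lactate, which MCT transporters carry out of the cell, or taken into mitochondria, where the pyruvate dehydrogenase complex makes acetyl-CoA and pyruvate carboxylase makes oxaloacetate. Most steps are encoded by several paralogs that differ between tissues. The early embryonic heart is known to rely strongly on glycolysis, and many genes of the pathway are known targets of the hypoxia-inducible transcription factors.

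Libraries held 19208859 to 23123255 estimated counts. Levels below are CPM, the counts of a gene relative to the size of its library, scaled by the TMM method, unless they are given as TPM, a measure of transcript abundance that salmon reports, which is also per length and allows genes to be set side by side. Flnc itself stood at 845, 623 and 746 CPM in control replicates 1 to 3 and at 127, 111 and 240 CPM in the FlncgKO libraries, a log2 difference of -2.21 (SE 0.35, adjusted p = 0.0656 by edgeR and 9.99e-07 by DESeq2). The FlncgKO libraries were lower in every case, with FlncgKO replicate 3 holding the most remaining Flnc RNA. The deletion removes part of the exons, and the counts also cover the others. The summed level of 10 cardiomyocyte markers was 36210 to 41170 CPM in the control and 33300 to 38710 CPM in the FlncgKO libraries, which fits the label of heart. Markers of other cell types were summed in the same way. The summed level of 10 platelet and megakaryocyte markers was 20.9 to 30.3 CPM in the control libraries and 706, 439.5 and 112.5 CPM in FlncgKO replicates 1 to 3. All 10 were higher in FlncgKO without overlap between groups, against 15.7% of all genes tested. Erythroid markers summed to 2930, 2868 and 8204 CPM in the control and 8000, 7029 and 11280 CPM in the FlncgKO libraries, and endothelial and endocardial markers to 842 to 1012 CPM and 906 to 1118 CPM. The 4 Y-linked genes, which male embryos carry, summed to 117 to 139.7 CPM in the control libraries and to 80.8, 3.88 and 4.28 CPM in FlncgKO replicates 1 to 3. In bulk libraries, fewer cells of a type and less RNA per cell cannot be told apart, and the part of cell types and of sex in the differences below was not tested beyond the values given.

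Taken as a share of all counts, the 40 genes made up 2.52%, 2.54% and 2.54% of the control libraries and 3.24%, 3.45% and 2.77% of the FlncgKO libraries. The level was therefore higher in each FlncgKO library than in any control library, and FlncgKO replicate 3 lay nearest to the controls. Of the 40 genes, 32 had a positive log2 difference (FlncgKO minus control), and the median difference was 0.26, against 0.01 over all genes tested, of which 8286 were positive.

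At an adjusted p under 0.05 in edgeR, Slc2a3, Pcx, Bsg, Aldoc, Galk1 and Pfkfb2 rose in FlncgKO. That is 6 of 40, where 1.06% of all genes tested were called higher, and 0 of 40 were called lower, where 0.249% of all genes were. DESeq2 called 19 of the 40 higher, against 6.19% of all genes with an adjusted p, and 0 lower, against 2.26%. At an unadjusted edgeR p under 0.05, 25 of the 40 were higher and 1, Pdhb, was lower, against 13.3% and 8.84% of all genes. The control and FlncgKO libraries did not overlap for 25 genes that were higher and 2 that were lower in FlncgKO, against 15.7% and 14.1% of all genes. The number of calls depended on single libraries. Without control replicate 1, control replicate 2 or FlncgKO replicate 1, 0 of the 40 genes passed the adjusted threshold in edgeR. At an unadjusted p under 0.05, 18, 22 and 17 of the 40 were then higher. Over all genes, 1557 of 16520, 1589 of 16630 and 1880 of 16505 were higher in these fits. Without FlncgKO replicate 3, 22 of the 40 genes were called higher, against 989 of all 16350 genes tested. With the summed Y-linked level as a covariate, 0 genes of the list and 0 of all genes were called by edgeR. Before adjustment at a p of 0.05, 15 of the list were higher and 1 was lower, against 906 and 391 of all 16048 genes. The log2 differences of the 6 genes were then 0.44 to 1.90, against 0.54 to 2.10 without the covariate, and the median of the 40 was 0.32.

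**Figure D1:**
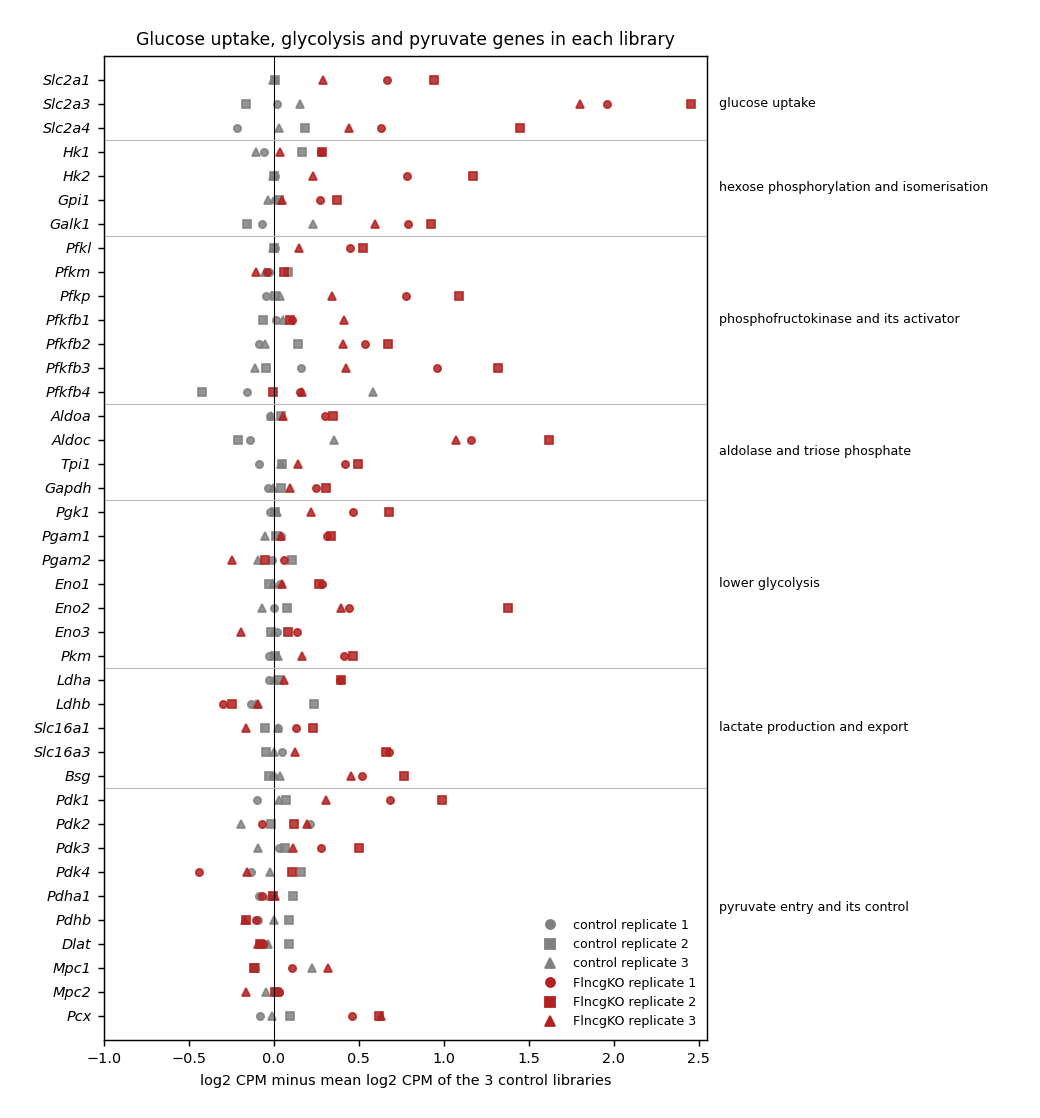
Level of each of the 40 genes in each library as log2 CPM minus the mean log2 CPM of the 3 control libraries, grouped by step of the pathway. Gray symbols are control and red symbols FlncgKO libraries, with a circle, square and triangle for replicates 1, 2 and 3. FlncgKO replicate 3 was the lowest of the 3 FlncgKO libraries for 32 of the 40 genes, against 34.9% of all genes tested. Replicate 2 was the highest for 26, against 34.4% of all genes tested.

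The order of the FlncgKO libraries recurred from gene to gene. FlncgKO replicate 3 was the lowest of the 3 for 32 of the 40 genes (80%), against 34.9% of all genes tested. It was the lowest for 24 of the 25 genes (96%) with a higher level at an unadjusted p under 0.05. Among all genes with a higher level at that p, it was the lowest for 58.4%. FlncgKO replicate 2 was the highest for 26 of the 40 genes (65%), against 34.4% of all genes tested. It was the highest for 22 of the 25 genes (88%) with a higher level at that p, against 60% of all such genes. Over all genes tested, the counts of FlncgKO replicate 3 were closer to those of control replicate 3 (chi-square per degree of freedom 16.6) than to those of FlncgKO replicates 1 and 2 (24.0 and 31.5). They were farthest from those of control replicates 1 and 2 (38.5 and 42.1), so the closeness held for 1 control library only.

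Glucose transporters had the largest median difference of the 7 steps, with a median log2 difference of 0.90 over 3 genes. Slc2a3 (ENSMUSG00000003153.10, chr6:122727809-122801640, minus strand, GRCm38) encodes GLUT3, a high-affinity glucose transporter known from neurons and the placenta and present in platelets. It was at 219, 193 and 241 CPM in the control and at 843, 1189 and 757 CPM in the FlncgKO libraries. Every FlncgKO library was thus at more than 3 times the level of the highest control library. The means were 218 ± 23.8 and 929 ± 229 CPM (SD, n = 3), a 4.27-fold rise with a log2 difference of 2.10 (SE 0.19, adjusted p = 0.0310 by edgeR and 1.71e-39 by DESeq2). The summed platelet markers were also higher in every FlncgKO library than in any control library and, like Slc2a3, lowest of the 3 in FlncgKO replicate 3, but highest in replicate 1 where Slc2a3 was highest in replicate 2. Their part in the rise of Slc2a3 was not tested.

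Slc2a1, encoding GLUT1, the main glucose carrier of embryonic tissues, was at 1100, 1102 and 1094 CPM in the control and at 1744, 2114 and 1344 CPM in the FlncgKO libraries. The control libraries were nearly identical and all FlncgKO libraries lay above them. The log2 difference was 0.66 (SE 0.16), which did not pass in edgeR (adjusted p = 0.0900) but did in DESeq2 (7.06e-05). Slc2a4, encoding the insulin-responsive carrier GLUT4 of adult muscle, was low, at 10.2, 13.5 and 12.1 CPM in the control and 18.3, 32.3 and 16.1 CPM in the FlncgKO libraries (log2 difference 0.90, SE 0.29, adjusted p = 0.147 by edgeR and 0.0111 by DESeq2). Per length, Slc2a1 was the most abundant of the 3 transporters in both groups, at a mean of 620 TPM in the control and 989 TPM in FlncgKO, against 96.9 and 413 TPM for Slc2a3. Slc2a3 therefore took a larger part of transporter RNA in FlncgKO. Its share of the summed TPM of the 3 genes was 13.5%, 12.2% and 14.2% in the control and 27.3%, 29.8% and 30.3% in the FlncgKO libraries, without overlap. That is a difference of 15.8 percentage points, with p = 0.1 in a two-sided exact permutation test, the smallest that 3 against 3 libraries allow, and 0.125 after adjustment over the 10 paralog shares compared.

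Hexose phosphorylation and isomerization followed, with a median log2 difference of 0.50 over 4 genes. Galk1 (ENSMUSG00000020766.4, chr11:116008457-116012719, minus strand), encoding galactokinase, which feeds galactose into the pathway, was at 78.0, 73.5 and 96.3 CPM in the control and at 142, 156 and 124 CPM in the FlncgKO libraries. The groups did not overlap. Galk1 rose 1.70-fold (82.6 ± 12.1 to 140.5 ± 16.2 CPM, SD, n = 3), with a log2 difference of 0.77 (SE 0.13, adjusted p = 0.0440 by edgeR and 3.14e-07 by DESeq2). Hk2, encoding the inducible hexokinase bound to mitochondria, was at 260.2, 259 and 258 CPM in the control and at 446, 583 and 304 CPM in the FlncgKO libraries. All 3 FlncgKO libraries were above the controls, but they spread widely, and the log2 difference of 0.78 (SE 0.24) passed in DESeq2 (adjusted p = 0.0418) and not in edgeR (0.149). Gpi1, glucose-6-phosphate isomerase, was at 999, 1017 and 973 CPM in the control and 1200, 1287 and 1028 CPM in the FlncgKO libraries (log2 difference 0.23, SE 0.08, edgeR adjusted p = 0.154). Hk1, the constitutive hexokinase, overlapped between groups and had a log2 difference of 0.20 (SE 0.10, edgeR adjusted p = 0.274). Hk1 remained the more abundant hexokinase per length, and the share of Hk2 was 26.7% to 30.7% in the control and 29.5% to 45.4% in the FlncgKO libraries, which overlap (exact permutation p = 0.2).

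At phosphofructokinase, the step that commits hexose to glycolysis, and at the bifunctional enzymes that make its activator fructose 2,6-bisphosphate, 6 of 7 genes had a positive log2 difference and the median was 0.38. Pfkfb2 (ENSMUSG00000026409.14, chr1:130689182-130729253, minus strand), the bifunctional enzyme known from heart, was the one that passed in edgeR. It was at 22.4, 26.3 and 23.0 CPM in the control and at 34.6, 37.9 and 31.6 CPM in the FlncgKO libraries, a 1.45-fold rise (log2 difference 0.54, SE 0.10, adjusted p = 0.0474 by edgeR and 7.24e-04 by DESeq2). Pfkfb3, the strongly activating form known to respond to hypoxia, was at 52.8, 45.6 and 43.6 CPM in the control and at 91.9, 118 and 63.3 CPM in the FlncgKO libraries. Its difference was larger than that of Pfkfb2, at 0.94 on the log2 scale, but its FlncgKO libraries spread more widely (SE 0.23, adjusted p = 0.102 by edgeR and 6.44e-05 by DESeq2). Pfkfb1 and Pfkfb4 were at 7.09 to 9.86 CPM and 8.88 to 17.9 CPM over all 6 libraries, with log2 differences of 0.21 and 0.04 and edgeR adjusted p of 0.389 and 0.944.

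The 3 phosphofructokinase genes had log2 differences of unequal size, and none passed in edgeR. Pfkp, the platelet-type subunit, which is also widespread in embryos, was at 428, 445 and 454 CPM in the control and at 757, 941 and 561 CPM in the FlncgKO libraries (log2 difference 0.77, SE 0.19, adjusted p = 0.0963 by edgeR and 2.78e-05 by DESeq2). Pfkl, the liver-type subunit, was at 412, 410.4 and 409 CPM in the control and at 559.7, 591 and 455 CPM in the FlncgKO libraries (log2 difference 0.38, SE 0.09, adjusted p = 0.0822 by edgeR and 0.00308 by DESeq2). In both genes every FlncgKO library lay above every control library. Pfkm, the muscle-type subunit, was at 102 to 112 CPM in the control and 98.2 to 110.5 CPM in the FlncgKO libraries, with a log2 difference of -0.03 (SE 0.07) whose sign turned in 2 of the alternative analyses. By TPM, Pfkp made up 40.8%, 41.8% and 42.8% of the 3 genes in the control and 48.6%, 51.5% and 46.5% in the FlncgKO libraries (exact permutation p = 0.1, 0.125 adjusted). Pfkfb3 made up 34.1% to 39.9% of the 4 bifunctional enzymes in the control and 38.8% to 53.4% in the FlncgKO libraries, with overlap (exact permutation p = 0.2).

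Aldolase and the triose phosphate steps held 4 genes, all with a positive log2 difference, at a median of 0.30. Aldoc (ENSMUSG00000017390.15, chr11:78322968-78327781, plus strand), the aldolase known from brain, was a low gene, at 7.96, 7.58 and 11.2 CPM in the control and at 19.6, 27.0 and 18.4 CPM in the FlncgKO libraries. It rose 2.43-fold (8.91 ± 2.00 to 21.7 ± 4.65 CPM, SD, n = 3), with a log2 difference of 1.28 (SE 0.21, adjusted p = 0.0420 by edgeR and 7.77e-07 by DESeq2). Aldoa, the muscle and embryonic aldolase, supplied nearly all aldolase RNA. It was at 1963, 2054 and 1969 CPM in the control and at 2461, 2534 and 2074 CPM in the FlncgKO libraries (log2 difference 0.24, SE 0.08, edgeR adjusted p = 0.142), and its share of the summed aldolase TPM was 99.6% to 99.7% in the control and 99.2% to 99.4% in the FlncgKO libraries. Aldoc thus had the larger relative change on a small base. Tpi1, triose phosphate isomerase, was at 986, 1081 and 1079 CPM in the control and at 1401, 1474 and 1157 CPM in the FlncgKO libraries (log2 difference 0.36, SE 0.09, adjusted p = 0.0916 by edgeR and 0.00627 by DESeq2). Gapdh, often used as a loading reference, was at 4713, 4976 and 4803 CPM in the control and at 5729, 5968 and 5157 CPM in the FlncgKO libraries (log2 difference 0.22, SE 0.07, adjusted p = 0.128 by edgeR and 0.0333 by DESeq2). None of its FlncgKO libraries overlapped the controls. Gapdh has many processed copies in the genome, and 86 annotated genes that matched its sequence held 1.13% to 3.72% of the counts of Gapdh and its copies together. Adding those counts left the calls of all 40 genes as they were.

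Lower glycolysis, from phosphoglycerate to pyruvate, held several of the most abundant RNAs, with a median log2 difference of 0.24 over 7 genes and no call in edgeR. DESeq2 called 2 of the 7, Pgk1 and Pkm, and 5 had a higher level before adjustment at a p of 0.05. Pgk1, phosphoglycerate kinase, which makes the first ATP of the pathway and lies on the X chromosome, was at 1477, 1503 and 1515 CPM in the control and at 2070, 2393 and 1741 CPM in the FlncgKO libraries (log2 difference 0.47, SE 0.11, adjusted p = 0.0780 by edgeR and 5.57e-04 by DESeq2). Pkm, pyruvate kinase, was at 2379, 2445 and 2471 CPM in the control and at 3236, 3353 and 2725 CPM in the FlncgKO libraries (log2 difference 0.35, SE 0.08, adjusted p = 0.0763 by edgeR and 0.00137 by DESeq2). For both genes the 3 FlncgKO libraries lay above all controls. Pgam1, the phosphoglycerate mutase of most tissues, was at 1051, 1028 and 982 CPM in the control and at 1268, 1285 and 1048 CPM in the FlncgKO libraries, which overlap by 1 library (log2 difference 0.24, SE 0.08, edgeR adjusted p = 0.156). Eno1, the enolase of most tissues, was at 3003, 2873 and 2912 CPM in the control and at 3568, 3519 and 3026 CPM in the FlncgKO libraries (log2 difference 0.20, SE 0.07, edgeR adjusted p = 0.165).

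The muscle-type paralogs of these steps had log2 differences near 0. Pgam2, the muscle phosphoglycerate mutase, was at 139 to 159.8 CPM in the control and 125 to 155 CPM in the FlncgKO libraries (log2 difference -0.08), and Eno3, the muscle enolase, at 251 to 257 CPM and 222 to 279 CPM (log2 difference 0.02). Neither passed a test, and the sign of both turned in 2 of the alternative analyses. As shares, both were lower in every FlncgKO library than in any control library. Pgam2 made up 22.2%, 23.6% and 22.2% of the summed TPM of Pgam1 and Pgam2 in the control and 20.0%, 18.5% and 19.3% in the FlncgKO libraries (exact permutation p = 0.1, 0.125 adjusted). Eno3 made up 9.78%, 9.78% and 9.84% of the 3 enolases in the control and 8.95%, 8.72% and 8.38% in the FlncgKO libraries (exact permutation p = 0.1, 0.125 adjusted). Eno2, the enolase known from neurons, was at 6.50, 6.85 and 6.18 CPM in the control and at 8.85, 16.9 and 8.55 CPM in the FlncgKO libraries (log2 difference 0.81, SE 0.27, edgeR adjusted p = 0.151), with FlncgKO replicate 2 far above the rest.

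Pkm RNA is spliced with 1 of 2 mutually exclusive exons. The M1 exon gives the enzyme of adult muscle and the M2 exon the form of embryonic and proliferating cells, so the pair bears on which pyruvate kinase the hearts made. Both exons are 167 bases long, in GRCm38 at chr9:59675029-59675195 (M1) and chr9:59675568-59675734 (M2) on the plus strand, and 103 bases (61.7%) are the same. They are shown from GENCODE transcripts because reads over them tell the forms apart, with capitals at the positions that differ.
Pkm M1 exon: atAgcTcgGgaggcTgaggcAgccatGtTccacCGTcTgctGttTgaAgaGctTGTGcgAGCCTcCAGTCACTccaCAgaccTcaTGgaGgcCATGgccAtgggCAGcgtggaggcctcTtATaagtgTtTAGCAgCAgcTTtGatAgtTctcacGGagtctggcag
Pkm M2 exon: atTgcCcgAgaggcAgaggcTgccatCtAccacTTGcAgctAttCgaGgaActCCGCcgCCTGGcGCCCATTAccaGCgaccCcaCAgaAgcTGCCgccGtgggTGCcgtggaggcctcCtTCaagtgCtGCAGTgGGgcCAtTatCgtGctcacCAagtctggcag
Transcripts with the M1 exon held 25.3%, 33.3% and 28.9% of Pkm TPM in the control and 28.4%, 28.8% and 29.8% in the FlncgKO libraries. Transcripts with the M2 exon held 69.2%, 62.5% and 65.6% in the control and 64.9%, 64.5% and 65.0% in the FlncgKO libraries. The M2 form was the larger part in every library, and the groups overlapped. The M1 share differed by -0.16 percentage points between group means (exact permutation p = 0.9), within the control SD of 4.02 points, so no shift in splicing was detectable, while the total Pkm level was higher in all FlncgKO libraries.

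Of the genes that turn pyruvate into lactate and export it, Bsg passed. Bsg (ENSMUSG00000023175.15, chr10:79704491-79711969, plus strand) encodes basigin, the chaperone that brings MCT transporters to the cell surface. It was at 439, 431 and 452 CPM in the control and at 631, 748 and 603 CPM in the FlncgKO libraries. The control libraries were within a narrow range and every FlncgKO library lay well above it. Bsg rose 1.50-fold (441 ± 10.6 to 660.5 ± 77.4 CPM, SD, n = 3), with a log2 difference of 0.58 (SE 0.08, adjusted p = 0.0348 by edgeR and 1.73e-08 by DESeq2). Slc16a3, encoding the lactate exporter MCT4, was at 385, 361 and 373 CPM in the control and at 596, 589.6 and 406 CPM in the FlncgKO libraries (log2 difference 0.51, SE 0.15, adjusted p = 0.126 by edgeR and 0.00392 by DESeq2). Slc16a1, encoding MCT1, which carries lactate in both directions, was at 210.1 to 222 CPM in the control and 194 to 255 CPM in the FlncgKO libraries (log2 difference 0.07, edgeR adjusted p = 0.703). MCT4 RNA was the larger part of the pair throughout, with 80.4%, 81.4% and 81.4% of the TPM in the control and 85.6%, 85.1% and 83.4% in the FlncgKO libraries (exact permutation p = 0.1, 0.125 adjusted).

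The lactate dehydrogenase subunits had differences of opposite sign, and neither passed in edgeR. Ldha, whose subunit favors lactate formation, was at 2502, 2608 and 2548 CPM in the control and at 3339, 3354 and 2659 CPM in the FlncgKO libraries (log2 difference 0.29, SE 0.09, adjusted p = 0.130 by edgeR and 0.0368 by DESeq2). Ldhb, the subunit of adult heart, was at 96.5, 125 and 98.4 CPM in the control and at 86.1, 89.3 and 99.4 CPM in the FlncgKO libraries (log2 difference -0.22, SE 0.11, edgeR adjusted p = 0.296). Ldhb overlapped between groups, and without control replicate 2 its difference was -0.09. Ldha held 95.5%, 94.5% and 95.5% of the summed TPM in the control and 97.0%, 96.9% and 95.8% in the FlncgKO libraries, without overlap (exact permutation p = 0.1, 0.125 adjusted).

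The genes of pyruvate entry into mitochondria were split, with 5 of 10 positive and a median log2 difference of 0.02. Pcx (ENSMUSG00000024892.17, chr19:4510472-4621752, plus strand), encoding pyruvate carboxylase, which refills the tricarboxylic acid cycle, was at 32.0, 36.2 and 33.7 CPM in the control and at 46.7, 52.0 and 52.5 CPM in the FlncgKO libraries. It rose 1.48-fold (34.0 ± 2.10 to 50.4 ± 3.22 CPM, SD, n = 3), with a log2 difference of 0.57 (SE 0.07, adjusted p = 0.0325 by edgeR and 2.19e-06 by DESeq2). Among the 25 genes with a higher level at an unadjusted p under 0.05, Pcx was the one in which FlncgKO replicate 3 was not the lowest of the 3. Pdk1, a kinase that switches off pyruvate dehydrogenase and is a known hypoxia target, was at 259.7, 293 and 284 CPM in the control and at 448, 553 and 344 CPM in the FlncgKO libraries (log2 difference 0.69, SE 0.17, adjusted p = 0.101 by edgeR and 1.47e-04 by DESeq2). Pdk3, an X-linked kinase of the same family, was at 109, 112 and 100.1 CPM in the control and at 129, 151 and 115 CPM in the FlncgKO libraries (log2 difference 0.30, SE 0.10, edgeR adjusted p = 0.140). Pdk2 and Pdk4 were low, at 11.3 to 15.0 CPM and 11.5 to 17.3 CPM over all libraries, with log2 differences of 0.07 and -0.15 and edgeR adjusted p of 0.783 and 0.597. Pdk1 made up 46.7%, 46.5% and 50.3% of the summed TPM of the 4 kinases in the control and 57.2%, 59.2% and 52.8% in the FlncgKO libraries (exact permutation p = 0.1, 0.125 adjusted).

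Of the listed genes, no subunit of the pyruvate dehydrogenase complex or of the pyruvate carrier was called by edgeR or DESeq2. Pdhb, its E1 beta subunit, was at 145, 164 and 155 CPM in the control and at 144, 138 and 138 CPM in the FlncgKO libraries, a log2 difference of -0.15 (SE 0.06, adjusted p = 0.204 by edgeR and 0.196 by DESeq2). Dlat, the E2 subunit, was at 117, 129 and 118 CPM in the control and at 116, 115 and 114 CPM in the FlncgKO libraries (log2 difference -0.08, edgeR adjusted p = 0.441). By CPM neither gene overlapped between groups, where 14.1% of all genes tested were lower without overlap. The highest FlncgKO library lay just under the lowest control library in each. By TPM, Dlat did overlap (82.8 to 105.6 in the control and 85.4 to 94.55 in the FlncgKO libraries). Pdha1, the X-linked E1 alpha subunit, and Mpc1 and Mpc2, the subunits of the mitochondrial pyruvate carrier, all overlapped, with log2 differences of -0.03, 0.10 and -0.04. The complex has 2 further subunits outside the list of 40, Pdhx and Dld, named here after their values were seen. By CPM both were also lower without overlap, but neither was called by edgeR (log2 differences -0.28 and -0.14). By TPM, Dld overlapped (121 to 131.9 in the control and 118.3 to 129.8 in the FlncgKO libraries). Pdhb, Pdhx and Dld had an unadjusted edgeR p under 0.05 (0.0400, 0.0121 and 0.0285), where 8.84% of all genes tested were lower at that p.

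**Figure D2:**
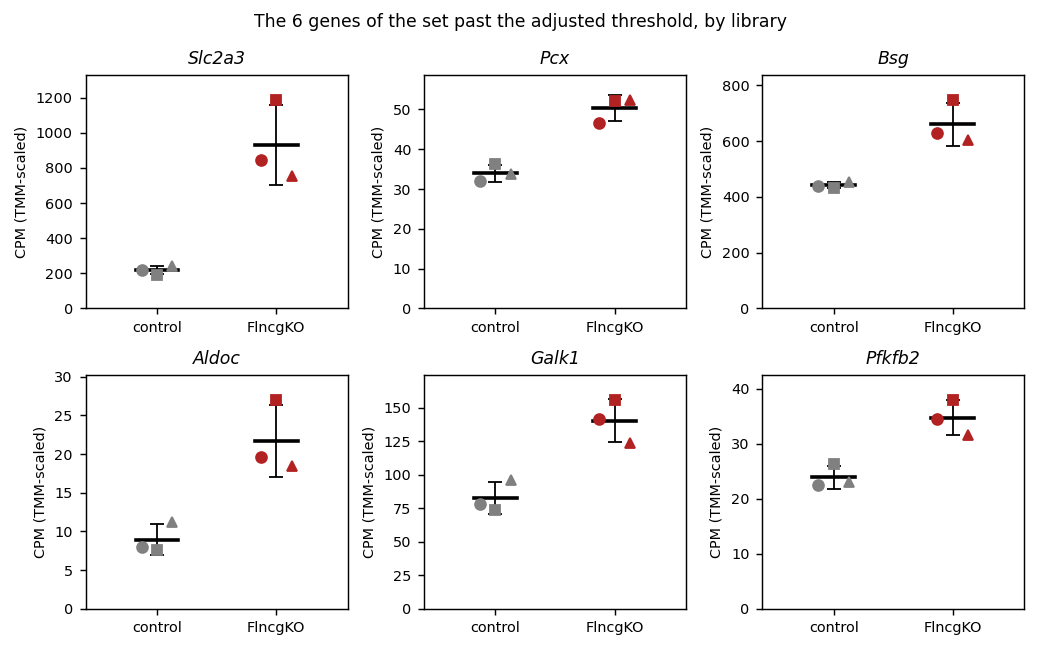
CPM of Slc2a3, Pcx, Bsg, Aldoc, Galk1 and Pfkfb2 in each library, with the mean (horizontal line) and SD (error bar) of the 3 libraries of each group on axes that start at 0. Circles, squares and triangles are replicates 1, 2 and 3; each FlncgKO library lies above all 3 control libraries in all 6 panels, from a 1.45-fold difference in Pfkfb2 to a 4.27-fold difference in Slc2a3.

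Shares of paralogs within a step are a second view of the same genes and libraries, and so not independent of the differences above. Of the 10 shares compared, 8 did not overlap between groups. No such rate was worked out for shares of other genes. Taken singly, 15.7% of all genes tested were higher and 14.1% lower without overlap. Slc2a3, Pfkp, Ldha, Slc16a3 and Pdk1 took a larger share in each FlncgKO library than in any control library, and Aldoa, Pgam2 and Eno3 a smaller one. The largest difference was in the GLUT transporters, at 15.8 percentage points, and the smallest in aldolase, at -0.32 points. With 3 libraries a group the exact permutation test cannot give p under 0.1, which all 8 reached (0.125 adjusted), so these shares are a description.

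**Figure D3:**
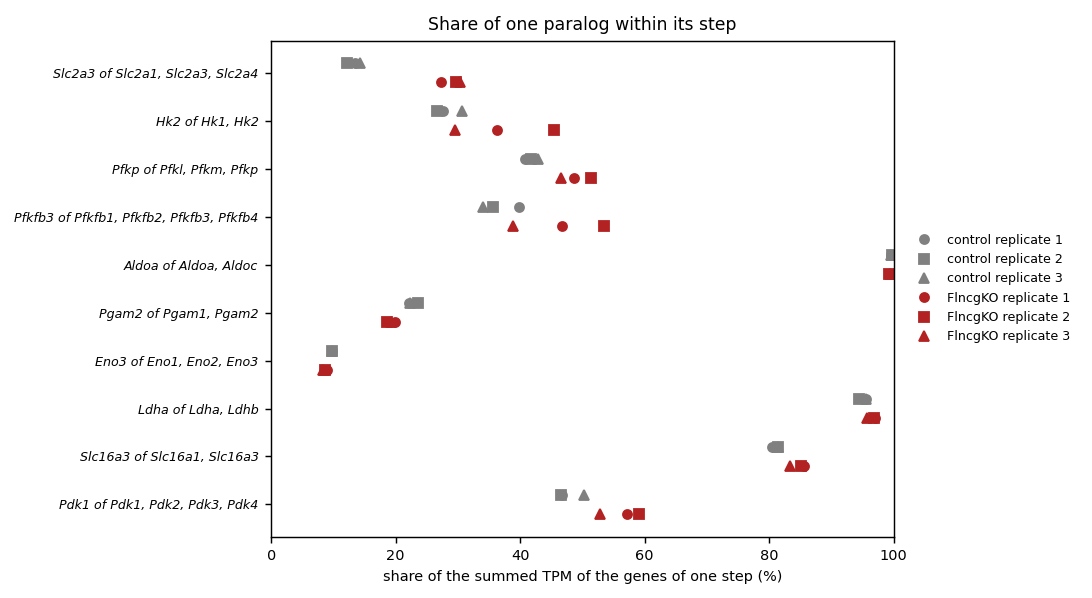
Share of 1 gene in the summed TPM of the paralogs that carry out the same step, in percent, for each library. Gray symbols (control) and red symbols (FlncgKO) are drawn slightly apart, with a circle, square and triangle for replicates 1, 2 and 3; Slc2a3 moves from 12.2% to 14.2% in the controls to 27.3% to 30.3% in FlncgKO, whereas the shares of Hk2 and Pfkfb3 overlap between groups.

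By level, Gapdh was the most abundant of the 40 RNAs in the control hearts, at a mean of 5401 TPM. Ldha (2845 TPM), Eno1 (2415 TPM), Aldoa (2341 TPM), Pkm (1585 TPM) and Pgk1 (1507 TPM) followed, and Eno2 (5.96 TPM), Pfkfb4 (7.56 TPM) and Aldoc (8.01 TPM) were the lowest. In FlncgKO Gapdh was again the highest, at 6389 TPM. The genes called by edgeR were therefore not the abundant enzymes of the lower pathway, but ones at 8.01 to 554 TPM in the control.

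The calls are per gene, and no test was run per transcript. The leading one of 8 Slc2a3 transcripts held 91.1% to 94.1% of Slc2a3 TPM in all 6 libraries, and it was at 90.9, 78.3 and 96.5 TPM in the control and 341, 501 and 308 TPM in the FlncgKO libraries. Bsg-205 held 96.4% to 97.6% of Bsg TPM. Aldoc-202 held 60.1% to 78.6% of Aldoc TPM, and Pfkfb2-203, the leading one of 13 Pfkfb2 transcripts, 27.7% to 40.1%, with TPM that overlapped between groups (4.04 to 5.97 in the control and 5.55 to 7.90 in the FlncgKO libraries). Pcx-204 held 85.8% to 100% of Pcx TPM, and Galk1 has 1 annotated transcript.

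The letters ACGTG are a form of the core that hypoxia-inducible factors recognize. RefSeq promoter windows of 300 bases, from 250 before to 50 after a start site, were searched for ACGTG on both strands, that is also for CACGT; the palindrome CACGTG counts on both. Of the 40 genes, 37 had at least 1 window, and 20 of these 37 (54.1%) held the motif in at least 1 window, against 5886 of 27025 genes (21.8%). Of 58 windows of the listed genes, 24 (41.4%) held it, against 6447 of 32851 windows of all genes (19.6%). The genes compared were not limited to those tested here, and a gene with more windows has more places for a match. Slc2a3 and Bsg, which passed in edgeR, had no window and could not be searched. Windows of 4 genes that passed in edgeR and held the motif are printed to show where the letters lie in genes that rose. Sequences are from RefSeq in build GRCm38.p6, 5′ to 3′ on the strand of the gene, with the motif in capitals. The Pcx window is chr19:4510222-4510521 (plus strand), the Aldoc window chr11:78322823-78323122 (plus), the Galk1 window chr11:116012670-116012969 (minus) and the Pfkfb2 window chr1:130715772-130716071 (minus).
Pcx: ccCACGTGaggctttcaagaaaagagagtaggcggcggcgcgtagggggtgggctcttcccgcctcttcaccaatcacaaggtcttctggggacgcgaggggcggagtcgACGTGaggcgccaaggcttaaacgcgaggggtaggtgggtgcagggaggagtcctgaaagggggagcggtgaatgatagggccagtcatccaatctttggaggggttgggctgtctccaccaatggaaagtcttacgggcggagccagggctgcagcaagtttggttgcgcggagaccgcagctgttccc
Aldoc: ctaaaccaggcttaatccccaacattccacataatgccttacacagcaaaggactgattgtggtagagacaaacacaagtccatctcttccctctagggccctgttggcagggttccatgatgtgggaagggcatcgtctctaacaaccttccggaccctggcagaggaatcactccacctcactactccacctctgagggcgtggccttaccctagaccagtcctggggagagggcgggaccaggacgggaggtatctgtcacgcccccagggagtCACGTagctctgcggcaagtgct
Galk1: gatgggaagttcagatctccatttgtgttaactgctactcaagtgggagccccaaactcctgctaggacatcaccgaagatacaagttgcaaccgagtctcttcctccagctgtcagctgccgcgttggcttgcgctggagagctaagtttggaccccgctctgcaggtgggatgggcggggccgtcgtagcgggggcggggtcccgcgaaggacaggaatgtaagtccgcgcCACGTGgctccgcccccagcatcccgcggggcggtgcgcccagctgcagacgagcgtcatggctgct
Pfkfb2: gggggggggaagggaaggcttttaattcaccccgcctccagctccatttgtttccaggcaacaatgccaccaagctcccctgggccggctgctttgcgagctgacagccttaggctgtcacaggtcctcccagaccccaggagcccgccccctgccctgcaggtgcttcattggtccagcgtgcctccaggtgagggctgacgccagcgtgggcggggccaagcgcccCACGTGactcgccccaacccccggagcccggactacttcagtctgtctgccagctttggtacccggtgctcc
Counted from the start site as base 0, the motif begins at -248 and -140 in Pcx, at 27 in Aldoc, at -17 in Galk1 and at -22 in Pfkfb2. The Galk1, Pfkfb2 and first Pcx matches are the palindrome CACGTG, which is also recognized by E-box factors such as MYC. Pcx and Aldoc have 2 windows each and Pfkfb2 has 3, of which 1 is shown. A match describes the letters of a window and is not a binding site. The motif was also present in windows of genes that did not pass, such as Slc2a1, Hk2, Pgk1 and Pdhb, and absent from those of Pfkp and Pdk1.

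Other genes of glucose metabolism came from further lists of named genes. The glycolytic, pentose phosphate and glycogen lists gave no call in edgeR, but DESeq2 called 8 of the 23 glycogen genes higher. Over all genes, 13.3% were higher and 8.84% lower at an unadjusted edgeR p under 0.05. DESeq2 called 6.19% of all genes with an adjusted p higher and 2.26% lower. Of 32 further glycolytic, glucose and pyruvate genes tested, 0 were called by edgeR in either direction (3 and 4 were higher and lower before adjustment at a p of 0.05, and DESeq2 called 1 and 1), and their median log2 difference was -0.01. The 2 with the smallest p were both lower in FlncgKO, Tigar, a fructose bisphosphatase that diverts glucose from glycolysis (log2 difference -0.35, edgeR adjusted p = 0.0950), and Mpi, mannose phosphate isomerase (-0.29, 0.104). Of 10 pentose phosphate genes, 0 were called by edgeR (2 higher and 0 lower unadjusted, 1 higher by DESeq2), with the smallest p for Tkt (log2 difference 0.25, adjusted p = 0.0809) and Pgls (0.25, 0.0994). Of 23 glycogen genes, 0 were called by edgeR (9 higher and 1 lower unadjusted, 8 higher and 0 lower by DESeq2). The smallest p among them were those of Gbe1, the branching enzyme (log2 difference 0.46, adjusted p = 0.0512), and Pygl, a glycogen phosphorylase (0.61, 0.0725).

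Beyond pyruvate, the tricarboxylic acid cycle genes had differences of the other sign, none of which passed in edgeR. Of 18 genes, 17 had a negative log2 difference, where 7762 of the 16048 genes tested did, and the median was -0.09, with 0 called by edgeR (0 higher and 5 lower unadjusted, 1 lower by DESeq2). Idh3a, a subunit of isocitrate dehydrogenase, had the smallest p (log2 difference -0.27, adjusted p = 0.0827), followed by Sdhb (-0.15, 0.165). The summed level of the 18 genes was 4547, 5008 and 4481 CPM in the control and 4473, 4265 and 4323 CPM in the FlncgKO libraries, lower in each FlncgKO library than in any control library, though by little at the narrowest. Mitochondrially encoded RNA made up 3.08% to 3.96% of counts in the control and 2.01% to 2.58% in the FlncgKO libraries.

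Among 27 regulators of glucose metabolism, edgeR called 1 gene higher, against 1.06% of all genes tested. That gene, Irs2, an adaptor of insulin and IGF receptors, was at 54.6, 47.5 and 49.0 CPM in the control and at 106, 91.9 and 75.4 CPM in the FlncgKO libraries (log2 difference 0.85, SE 0.13, edgeR adjusted p = 0.0377). DESeq2 called 6 of the 27 higher and 1 lower, against 6.19% and 2.26% of all genes with an adjusted p. Of 14 hypoxia targets outside glycolysis, edgeR called 3 higher and DESeq2 13, against 1.06% and 6.19% of all genes. All 14 had a positive log2 difference, with a median of 1.22, where 8286 of the 16048 genes tested were positive. The 3 called by edgeR were Car9, a carbonic anhydrase (log2 difference 3.16, adjusted p = 0.0321), and P4ha2 and P4ha1, prolyl hydroxylases of collagen (1.71, 0.0372 and 0.93, 0.0411). The summed level of the 14 genes was 829, 799 and 922 CPM in the control and 1785, 2526 and 1406 CPM in FlncgKO replicates 1 to 3. Replicate 2 was thus the highest and replicate 3 the lowest, as for most of the 40 genes. Among all genes with a higher level at an unadjusted edgeR p under 0.05, replicate 2 was also the highest for 60% and replicate 3 the lowest for 58.4%. Whether these lists share a cause with the glycolytic genes was not tested.

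**Figure D4:**
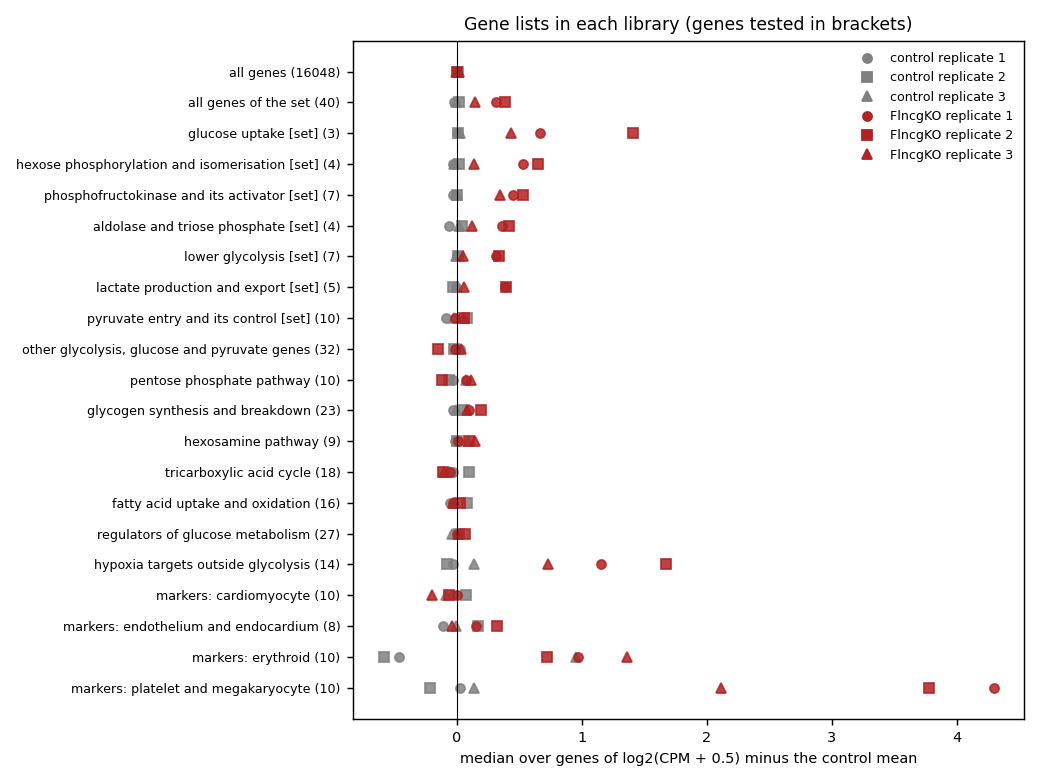
For each library, the median of a gene list, where each gene is taken as log2(CPM + 0.5) relative to its mean in the 3 control libraries. Gray symbols are control and red symbols FlncgKO libraries, with a circle, square and triangle for replicates 1, 2 and 3, and the number of genes tested is in brackets; the 40 genes lie at 0.31, 0.38 and 0.15 in FlncgKO replicates 1 to 3, the hypoxia targets at 1.15, 1.67 and 0.73, and the platelet markers at 4.30, 3.78 and 2.12.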

How the data were processed

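Per the labels and the study's methods, polyA RNA of E9.5 hearts was made into TruSeq stranded libraries and sequenced, and the authors assigned reads with salmon (version not given in the sources used here) to GENCODE release M22 transcripts (GRCm38.p6). The deposited files give estimated counts, TPM and effective lengths per transcript, 1 library per file. Estimated counts were summed per gene with a GENCODE M21 map (0.370% of transcripts had no gene there), rounded, filtered (filterByExpr, minimum count 10), TMM-scaled and tested with the quasi-likelihood test of edgeR 4.0.16 in R 4.3.3, with Benjamini-Hochberg adjustment over 16048 genes. This replaces the DESeq2 1.22.2 of the authors, and DESeq2 1.42.0 was an alternative. Effective lengths entered length offsets in 1 alternative. Shares used the deposited TPM and two-sided exact permutation tests. Aldoa has 2 gene IDs, and the one with more counts was used. The script was tested on simulated data. Libraries of a group differed by more than sampling noise (chi-square per degree of freedom 7.68 to 31.5).

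The 40 genes and the lists were chosen with earlier results of these data known. All 40 genes are named, those past a threshold or with an unadjusted p under 0.05 by library. Of each other list, every passing gene is named where 5 or fewer pass, otherwise the 4 with the smallest p, and where none passes the 2 with the smallest p. Oga of the hexosamine list was not matched by symbol. The M1 and M2 forms were told apart by exons of the annotation.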

Additional observations from a re-analysis of the deposited data

How the results depend on the processing

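edgeR called 170 genes higher and 40 lower in FlncgKO. The counts were 392 and 162 without the filter on low counts and 63 and 13 with transcript length offsets, 987 and 360 with DESeq2, and 0 and 0 with the Y-linked covariate. Requiring 10 counts in every library gave 62 lower. Of the 40 listed genes, the 6 calls became 2 with length offsets (Slc2a3 and Pcx), 19 with DESeq2, 0 with the Y-linked covariate and 7 without the filter (Pkm added). Without X and Y genes, 36 listed genes were tested and 5 were called (Galk1 lost, edgeR adjusted p = 0.0503). Leaving out 1 library gave 1 to 989 genes higher, 0 to 283 lower, and 0 to 22 listed genes higher, with 0 listed genes lower throughout. The 0 came without control replicate 1, control replicate 2 or FlncgKO replicate 1, the 22 without FlncgKO replicate 3, 3 without control replicate 3 and 2 without FlncgKO replicate 2. RLE scaling and the addition of sequence copies left the same 6 genes called. The edgeR adjusted p over the alternatives was 0.00477 to 0.213 for Slc2a3, 0.00126 to 0.290 for Pcx, 0.00138 to 0.327 for Bsg, 0.0150 to 0.425 for Aldoc, 0.0117 to 0.387 for Galk1 and 0.00698 to 0.404 for Pfkfb2, and the direction of these 6 genes did not turn. The sign turned in at least 1 alternative for 9 uncalled genes, Eno3, Mpc1, Mpc2, Pdha1, Pdk2, Pfkfb4, Pfkm, Pgam2 and Slc16a1. The Pkm M1 share difference of -0.16 points ranged from -2.09 to 1.92 points without 1 library, and was 1.92 without control replicate 2 and 0.16 without FlncgKO replicate 1. The causes were not tested.

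Replicate numbers were not taken as pairs. Deviations from the group mean correlated best between same-numbered libraries for replicates 2 and 3 (0.57 and 0.62). For replicate 1 the value was 0.09, and control replicate 1 correlated best with FlncgKO replicate 2 (0.27). Deviations from a mean of 3 libraries are not independent, so these values cannot settle whether the libraries were paired. A replicate block gave 512 genes higher and 120 lower, and 4 listed genes higher (Slc2a3, Pfkfb2, Bsg and Pcx). With 3 libraries a group, exact tests of shares cannot fall below 0.1, and low genes such as Aldoc and Eno2 rest on few counts.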

Other observations

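Fatty acid uptake and oxidation, the main fuel route of the adult heart, gave 1 edgeR call among 16 genes tested. It was lower in FlncgKO, where 0.249% of all genes tested were called lower. Acaa2, a thiolase of mitochondrial beta-oxidation, was at 74.7, 77.8 and 77.2 CPM in the control and at 62.5, 59.4 and 61.3 CPM in the FlncgKO libraries, which do not overlap, and fell by 0.33 on the log2 scale (SE 0.05, adjusted p = 0.0391 by edgeR and 2.20e-04 by DESeq2). The median log2 difference of the 16 genes was -0.05, with 7 positive and 9 negative. At an unadjusted edgeR p under 0.05, 1 was higher and 4 were lower, against 13.3% and 8.84% of all genes. DESeq2 called 0 higher and 2 lower, against 6.19% and 2.26% of all genes with an adjusted p. Of 9 hexosamine genes, which turn fructose 6-phosphate into the sugar donor of protein O-GlcNAc, 0 were called by edgeR (2 and 0 were higher and lower before adjustment at a p of 0.05, and DESeq2 called 1 higher). Ogt, the O-GlcNAc transferase, was at 239, 241 and 247 CPM in the control and at 318, 406 and 291 CPM in the FlncgKO libraries (log2 difference 0.48, adjusted p = 0.0895 by edgeR and 0.00134 by DESeq2), and Gfpt2 had a log2 difference of 0.27 (edgeR adjusted p = 0.109).

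Summed markers of other cell types were low next to the cardiomyocyte markers. Leukocyte markers summed to 8.83, 12.0 and 20.3 CPM in the control and 24.4, 19.6 and 39.6 CPM in FlncgKO replicates 1 to 3. Mesenchymal and epicardial markers summed to 344 to 391 CPM and to 375, 400 and 578 CPM. Liver bud and yolk sac endoderm markers summed to 138, 14.3 and 32.7 CPM and to 15.4, 9.35 and 51.7 CPM. Surface ectoderm and epithelial markers summed to 184, 129 and 279 CPM and to 246, 324 and 511 CPM. FlncgKO replicate 3 was the highest of the 3 FlncgKO libraries in all 4 lists, while it was the lowest for most of the 40 genes of glucose and pyruvate metabolism. The part of these cells in the differences was not tested.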
